A study of Mus musculus with 38 samples.

Results

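In mouse embryonic stem cells, 625 HSF2 binding sites also overlapped an HSF1 binding site and did not overlap a SOX2 binding site. They were taken from the deposited list of 2135 distinct HSF2 intervals by requiring at least 1 bp shared with one of 1726 HSF1 intervals and no base shared with any of 15081 SOX2 intervals, and they make up 29.3% of the HSF2 sites. The HSF1 and HSF2 intervals were called by the authors from their own libraries in either phase, whereas the SOX2 intervals came from published work, so the absence of SOX2 means absence from that list. No measured change between phases entered the choice.

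Binding was measured with CUT&Tag, in which an antibody directs a transposase to a protein on unfixed chromatin and the DNA around it is released and sequenced. Endogenous HSF1 and HSF2 were profiled in JM8, a line of mouse embryonic stem cells. Halo-HSF2, the full-length protein with an N-terminal HaloTag, was profiled in JM8 cells lacking Hsf2 with the HSF2 antibody, and an HA-tagged Halo-HSF2 with an HA antibody. Halo-H2DBD, the DNA-binding domain with its nuclear localization signals but without the HR-A/B region through which HSFs trimerize, was profiled in the same knockout background with the HA antibody. The constructs were stably overexpressed, in cells without endogenous HSF2. Each was measured in asynchronous cells (A) and in mitotic cells (M), which were arrested by 6 h in nocodazole at 50 ng/ml and collected by shake-off. Such collections keep some non-mitotic cells. The series holds 38 libraries in 19 conditions with 2 libraries per condition, of which 10 conditions are used here. Control libraries (IgG, the HA antibody in untagged cells, and Hsf2 knockout cells carrying no construct) were not analysed here. No background level therefore stands beside the signals.

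The values are mean coverage per base over an interval, scaled by a Drosophila spike-in and averaged over the replicates by the authors. The tables used here give averages and no value per library. The spread between libraries could therefore not be computed from them, M was not tested against A, and "higher" and "lower" below compare averaged tracks. Intervals given with medians are 95% order-statistic intervals over sites, and those given with shares are 95% Wilson intervals. Both cover the spread over sites and not the error of a library. These tables do not give the depth behind a value, since the coverage in them is already scaled, and read totals per library were not used here.

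Heat shock factors are winged-helix transcription factors that bind DNA as trimers. Each subunit contacts one GAA unit, and a run of such units in alternating orientation is called a heat shock element (HSE). HSF1 is the main activator of chaperone genes after proteotoxic stress, and HSF2, which can form mixed trimers with HSF1, is best known for roles in development and gametogenesis. The pluripotency factor SOX2 was the study's reference for a factor that stays on mitotic chromosomes.

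An HSE was scored here wherever 3 alternating units stood 2 bases apart, that is GAANNTTCNNGAA or its reverse complement TTCNNGAANNTTC. Such an element was present in 131 of the 623 shared sites with reference sequence, and the 131 sites held 146 elements. Of these, 128 had 3 units, 11 had 4 and 7 had 5. The elements at chaperone genes are shown first, because chaperone genes are the known targets of both factors. The HSF2 signal of their sites in A ran from 90.8 at Stip1 to 4.42 at Cct8. Sequences are the plus strand of GRCm38 (mm10), with the element in capitals and its coordinates beside the name.
Stip1, chr19:7040279-7040291: gttctTTCTGGAAATTTCcacaa
Hspd1 and Hspe1, chr1:55088059-55088076: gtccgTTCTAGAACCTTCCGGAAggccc
Hspa8 (first), chr9:40801063-40801075: agcgtGAAAGTTCCAGAAcgccg
Hspa8 (second), chr9:40801221-40801233: cacccTTCTGGAAGGTTCtaaga
Dnaja1, chr4:40722534-40722546: gggcgGAACTTTCCAGAAcgctc
Chordc1, chr9:18292263-18292285: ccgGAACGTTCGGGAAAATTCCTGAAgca
Tcp1, chr17:12916812-12916824: gggaaGAATGTTCGAGAAtgcac
Hspb1, chr5:135888909-135888921: gaaggGAAGTTTCTGGAAagttt
Cct4, chr11:22990645-22990657: tcgctTTCTGGAAGGTTCgtgga
Cct8, chr16:87495616-87495628: tccctTTCTAGAACCTTCtccat
Dnajb6, chr5:29735852-29735864: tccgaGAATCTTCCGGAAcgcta
Fkbp8 and Kxd1, chr8:70531941-70531963: ataGAACGTTCTAGAATATTCCAGAAtat
The element of Hspd1 and its divergent partner Hspe1 lay between annotated transcripts, 43.5 bp upstream of the Hspd1 start. That of Chordc1 lay in an annotated exon 32 bp upstream of the Chordc1 start. The 2 elements of Hspa8 were exonic, the first 85 bp downstream and the second 75 bp upstream, each measured from the coding start nearest to it. The elements of Cct8, Tcp1 and Hspb1 were intronic, 166, 376 and 897 bp downstream of the start. Those of Dnaja1, Cct4 and Dnajb6 were in annotated exons, between 1 and 78 bp past the nearest coding start. The element of Stip1 lay between annotated transcripts, 318 bp upstream of the start, and that of the Fkbp8 and Kxd1 site was intronic, 3996 bp from the Kxd1 start.

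At some of the best known heat shock genes the class had no exact element. The intervals at Hspa1a, Hspa1b and Dnajb1 each held copies with 1 unit base changed, which are shown because these genes are textbook HSF1 targets. Copies of this kind were present in 44.5% of the 492 shared sites without an element, so they are not particular to these genes. Positions are counted from 1 at the left end of the capitals.
Hspa1a, chr17:34972253-34972265: gccagGAATCTTCCAGCAgtttc
Hspa1b, chr17:34959335-34959347: gccagGAATCTTCCAGCAgtttc
Dnajb1, chr8:83608221-83608233: gggcgGAAGGTTCTGGAGggctg
The changed base was at position 12 in Hspa1a and Hspa1b and at position 13 in Dnajb1. The copies of Hspa1a and Hspa1b lay 103 bp upstream of the start and were identical over the letters shown, as these 2 genes are near-identical neighbours whose reads can be assigned to either.

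Most elements lay outside exons, the longest among them. Of all 146 elements, 65 were intronic, 54 were between genes and 27 were in exons. Of the 18 elements with 4 or more units, 10 were intronic, 7 were between genes and 1 was in an exon. A window of 101 bases is shown for 4 of them that lay away from coding starts.
Tns3 intron, chr11:8469430-8469530: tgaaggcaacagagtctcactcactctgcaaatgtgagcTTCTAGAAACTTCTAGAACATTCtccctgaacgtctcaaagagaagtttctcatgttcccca
Cacna1a intron, chr8:84497941-84498041: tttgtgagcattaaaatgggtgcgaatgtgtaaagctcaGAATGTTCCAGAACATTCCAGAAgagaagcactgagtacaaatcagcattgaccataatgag
Between genes near Btbd2, chr10:80661432-80661532: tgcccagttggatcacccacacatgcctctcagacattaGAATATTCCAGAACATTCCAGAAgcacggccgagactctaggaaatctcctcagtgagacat
Prdm16 intron, chr4:154577314-154577414: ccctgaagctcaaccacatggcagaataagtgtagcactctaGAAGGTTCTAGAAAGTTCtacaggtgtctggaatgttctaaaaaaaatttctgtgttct
The first 3 hold 5 units and the last holds 4.

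Shared sites held an element more often than the sequence around them. The share was 21.0% (18.01 to 24.4) in the intervals, 5.14% in windows of the same width 2 kb to the left and 4.33% in those 2 kb to the right. It was 14.1% (12.7 to 15.6) over all HSF2 sites, 24.7% (19.7 to 30.5) where HSF1, HSF2 and SOX2 coincided, and 8.63% (7.11 to 10.4) at HSF2 sites with neither HSF1 nor SOX2. The windows beside these sites were lower too, at 4.27% to the left and to the right of all HSF2 sites. The left and right shares were 6.17% and 6.58% with all 3 factors and 3.36% and 3.72% with neither. Elements of 4 or more units were found in 2.89% (1.84 to 4.52) of the shared sites, in 0.823% (0.226 to 2.95) of the sites with all 3 factors and in 0.363% (0.141 to 0.930) of the HSF2 sites with neither. The interval of the class thus overlapped that of the sites with all 3 factors and not that of the sites with neither. The median width was 2574 bp in the class, 3058 bp at the sites with all 3 factors and 2170 bp at the HSF2 sites with neither factor. Per kb of interval there were 0.093, 0.075 and 0.038 runs of 3 units in the same order, a longer element counting more than once. Per kb the class thus stood above the sites with all 3 factors, and by share of sites below them. No test of the part of width was run.

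**Figure D1:**
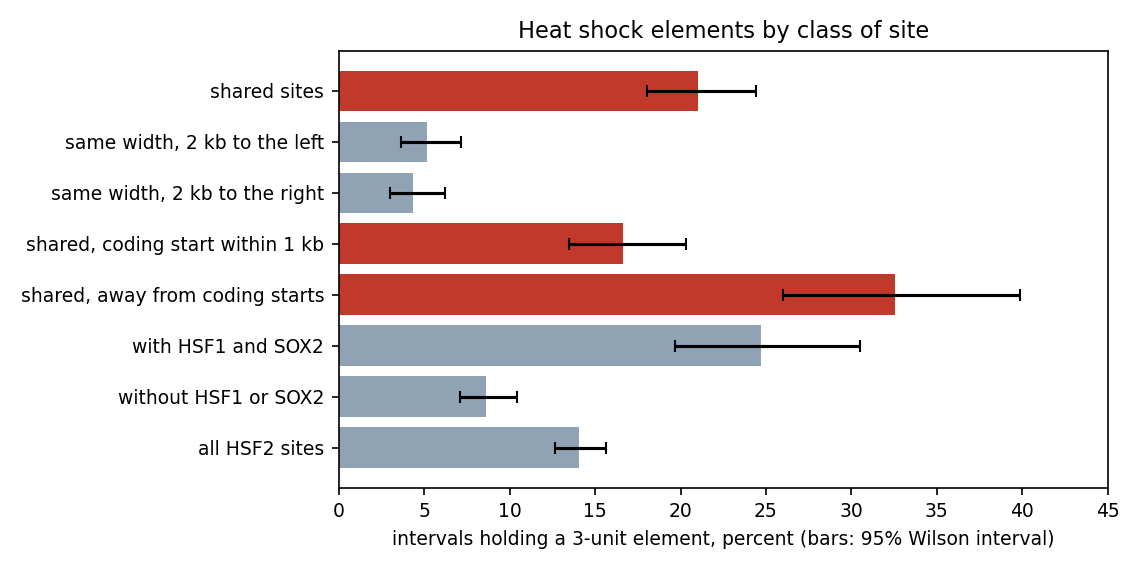
Percent of intervals that held a heat shock element of 3 units (x axis) in each class of HSF2 site (y axis), with 95% Wilson intervals as error bars. The shared sites stand at 21.0% and windows of the same width beside them at 5.14% and 4.33%.

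Elements were rarer in promoters, but again more frequent at shared sites than at HSF2 sites with neither HSF1 nor SOX2. Among 32851 promoter windows of 300 bases in RefSeq (GRCm38.p6), 198 held an element, or 0.603% (0.525 to 0.692). Of the 635 windows that overlapped a shared site, 15 did, or 2.36% (1.44 to 3.86). Of the 1072 that overlapped an HSF2 site with neither HSF1 nor SOX2, 5 did, or 0.466% (0.199 to 1.09), which was not above the share of all windows. Of the 2033 that overlapped any HSF2 site, 29 did, or 1.43% (0.995 to 2.04), an interval that overlapped that of the shared sites.

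Elements lay towards the middle of the intervals. The median distance between an element and the middle of its HSF2 interval was 385 bp, and 86 of the 146 (58.9%) lay within 500 bp. In 129 cases (88.4%) the element also lay inside the overlapping HSF1 interval. A coding transcript started within 1 kb of 64 elements, and 45 elements were more than 10 kb from any coding start.

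**Figure D2:**
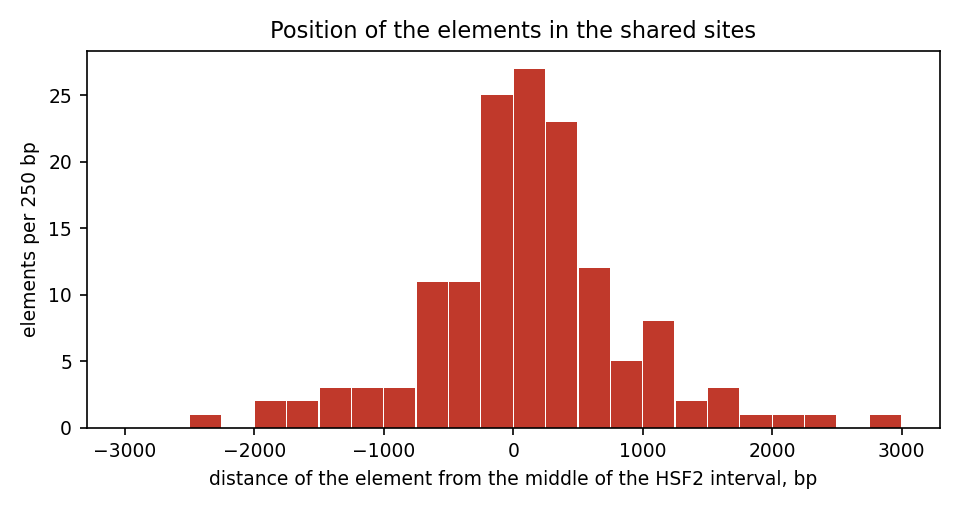
Number of elements per 250 bp (y axis) by distance from the middle of the HSF2 interval in bp (x axis), for the elements of the shared sites. Most lie within 500 bp of the middle, and 1 element at a distance of 5083 bp falls outside the axis.

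The shared sites were mostly promoters. A coding transcript started inside or within 1 kb of 451 of them (72.2%, 68.5 to 75.5), against 72.9% of all HSF2 sites, 79.1% of the HSF2 sites with neither HSF1 nor SOX2 and 51.4% of those with both. At 95 shared sites the starts of 2 or more coding genes lay in reach. Of the 625, 517 touched an annotated exon, 30 lay wholly in introns and 78 outside annotated transcripts. The share with an element was 16.6% (13.5 to 20.3) at the sites with a coding start and 32.6% (26.0 to 39.9) at the 174 sites away from one.

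Each shared site overlapped a single HSF1 interval in 614 cases and 2 or more in 11. The HSF1 interval covered a median of 76.9% of the HSF2 interval, and the middles of both lay a median of 269.5 bp apart. At least 50% of the HSF2 interval was covered in 551 sites (88.2%). The smallest overlaps were 221 bp at chr3:121249783-121250377, 293 bp at chr19:61199491-61199848 and 341 bp at a site near the start of Phf21a. The nearest HSF2 sites without an overlap, at Bax, at Kansl1 and at Brox and Aida, lay 167, 459 and 494 bp from an HSF1 interval, and their HSF2 signal in A was 3.45, 3.91 and 2.05.

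HSF1 signal was lower in M than in A at nearly every shared site. The median HSF1 signal was 7.88 in A and 5.00 in M, and the median log2 M/A was -0.64 (-0.68 to -0.61). HSF1 was higher in M at 4.48% of the sites. Relative to the weakest quartile of all HSF1 sites, whose median was -0.59, the shared sites stood at -0.050. A log2 M/A of -1 or lower, a 2-fold decrease, was found at 96 sites (15.4%), against a background of 17.7% over all 1726 HSF1 sites, and a 2-fold increase at 1 site (0.160%), against 0.521%. Both shares lay near or below the background, and the median over all HSF1 sites was -0.62 (-0.64 to -0.59). A different set of averaged A and M values accompanies the HSF1 intervals in the deposit. With those the median at the shared sites was -2.18, so the size of the HSF1 difference depends on which deposited column is read.

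HSF2 signal at the same sites was more often higher in M. Its median was 5.47 in A and 7.58 in M, with a median log2 M/A of 0.43 (0.35 to 0.49), and it was higher in M at 71.4% of the sites. A 2-fold increase was found at 166 sites (26.6%), against 30.1% of all distinct HSF2 sites, and a 2-fold decrease at 33 (5.28%), against 7.26%. Neither share was above that of the whole list. The weakest quartile of all HSF2 sites had a median log2 M/A of 0.71, and relative to that level the shared sites stood at -0.28. The sign of the HSF2 difference therefore holds for the spike-in scaled signal and turns when weak sites are set to no change.

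Site by site, the difference of log2 M/A between HSF2 and HSF1 had a median of 1.07 (0.99 to 1.18), and HSF2 had the higher ratio at 547 of the 625 sites (87.5%, 84.7 to 89.9). At 434 sites (69.4%) HSF2 was higher and HSF1 lower in M. Both were lower at 163 sites (26.1%) and both higher at 12, and at 16 HSF2 was lower and HSF1 higher. In all, 25 sites combined a 2-fold increase of HSF2 with a 2-fold decrease of HSF1. Taken alone, the increase was found at 26.6% of the shared sites and the decrease at 15.4%. Whether both coincided more often than these shares would give was not tested. Across the 625 sites, which share their libraries, the log2 ratios of the 2 factors were unrelated in rank (Spearman's rho = -0.05). When each factor was set against its weakest quartile of sites, the median difference was -0.23.

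**Figure D3:**
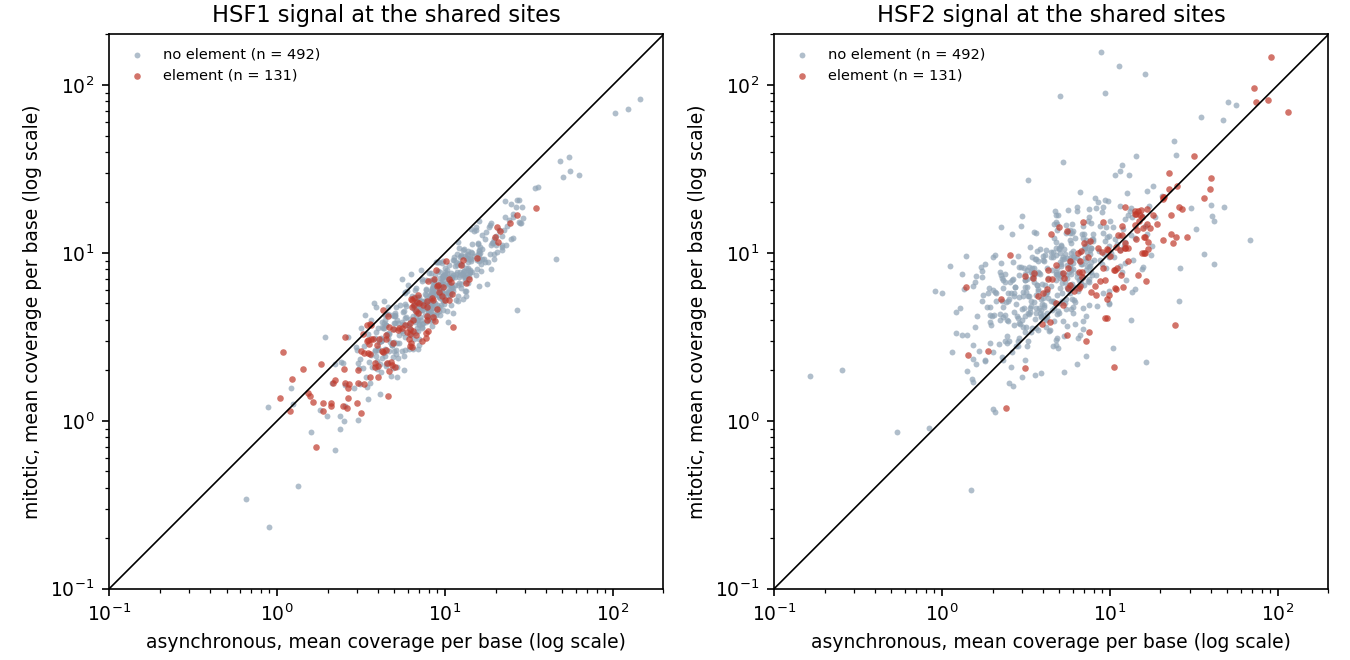
HSF1 (left) and HSF2 (right) signal in mitotic cells (y axis) against asynchronous cells (x axis), as mean coverage per base on log scales, 1 point per shared site, with sites holding an element in red. Nearly all points lie below the line of equality for HSF1, and most of the grey points lie above it for HSF2.

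Sites with an element and sites without one differed in their HSF2 signal. With an element (n = 131) the median HSF2 signal was 10.8 in A and 10.2 in M. Without one (n = 492) it was 4.84 in A and 7.15 in M. The median log2 M/A was -0.05 (-0.16 to 0.09) with an element and 0.54 (0.46 to 0.62) without. On the spike-in scale HSF2 was thus about level between the phases at element sites and mostly higher in M at the others. Relative to the weakest quartile of HSF2 sites the medians were -0.76 with an element and -0.16 without, so the second sign turned while the order held. The HSF2 ratio also varied with signal level. Divided into quartiles by mean HSF2 signal, the shared sites had median log2 M/A of 0.46, 0.52, 0.55 and 0.13, from weakest to strongest. The part of signal level in the split by element was not tested.

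The same split was seen at promoters and away from them. Among sites with a coding start within 1 kb, the median log2 M/A of HSF2 was 0.08 (-0.08 to 0.24) at the 75 with an element and 0.62 (0.53 to 0.73) at the 376 without. Among sites away from coding starts, it was -0.28 (-0.51 to 0.03) at the 56 with an element and 0.27 (0.06 to 0.45) at the 116 without. The 18 sites with 4 or more units had a median HSF2 signal of 16.1 in A and a median of 11.01 in M. Their median log2 M/A was -0.40 (-0.79 to 0.29).

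HSF1 did not share this split in its ratio. Its median log2 M/A was -0.66 (-0.71 to -0.58) with an element and -0.64 (-0.68 to -0.61) without. Its level went the other way from that of HSF2, with a median in A of 5.22 with an element and 8.46 without. As a result the median difference of log2 M/A between HSF2 and HSF1 was 0.61 (0.45 to 0.74) with an element and 1.22 (1.10 to 1.30) without.

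Signal strength sorted the elements in opposite order for the 2 factors. Divided into quartiles by mean HSF2 signal, 5.73% of the sites in the weakest quartile held an element, then 14.7%, 22.4% and 41.0% in the strongest. Divided by mean HSF1 signal, the shares were 38.9%, 25.0%, 11.5% and 8.33%. Across the shared sites, HSF1 and HSF2 signal in A were unrelated in rank (rho = 0.01, n = 625), and in M rho was 0.25. Each factor ranked the sites alike in both phases to a different degree, with rho = 0.92 between A and M for HSF1 and 0.63 for HSF2.

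Halo-HSF2 read with the HSF2 antibody was higher in M at 78.0% of the shared sites. Its median signal was 1.80 in A and 2.50 in M, and the median log2 M/A was 0.54 (0.47 to 0.62) over 622 sites above 0 in both phases. It had a 2-fold increase at 181 sites (29.1%), against 33.5% of all HSF2 sites, and a 2-fold decrease at 14 (2.25%), against 2.92%. Read with the HA antibody, Halo-HSF2 had medians of 1.75 in A and 2.47 in M and a median log2 M/A of 0.53 (0.48 to 0.59). A 2-fold increase was found at 99 sites (15.8%), against 19.8%, and a 2-fold decrease at 4 (0.640%), against 0.843%. Both readings of the full-length protein thus lay near their background. Relative to the weakest quartile of sites, the median was 0.014 by the HSF2 antibody and turned to -0.17 by the HA antibody.

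Halo-H2DBD was nearly level between phases. Its median signal was 2.01 in A and 2.25 in M, and the median log2 M/A was 0.09 (0.05 to 0.13). A 2-fold increase was found at 14 sites (2.24%), against 3.98% of all HSF2 sites, and a 2-fold decrease at 19 (3.04%), against 3.37%. HSF2 and Halo-HSF2 by both antibodies were all higher in M at 329 of the shared sites (52.6%), and HSF1 was lower in M at 320 of these. Taken alone, these signals were higher in M at 71.4%, 78.0% and 86.9% of the shared sites, and HSF1 at 4.48%. The same count was not taken over all HSF2 sites. Whether the signals coincided more often than their single shares would give was not tested.

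The constructs did not have more signal at element sites. With an element, the median signal in A was 1.09 for Halo-HSF2 by the HSF2 antibody, 0.92 by the HA antibody and 1.24 for Halo-H2DBD. Without an element the same medians were 2.00, 2.02 and 2.26. This order is the reverse of that of endogenous HSF2 and the same as that of HSF1. The median log2 M/A with and without an element was 0.41 and 0.59 by the HSF2 antibody, 0.61 and 0.51 by the HA antibody and -0.04 and 0.11 for Halo-H2DBD.

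**Figure D4:**
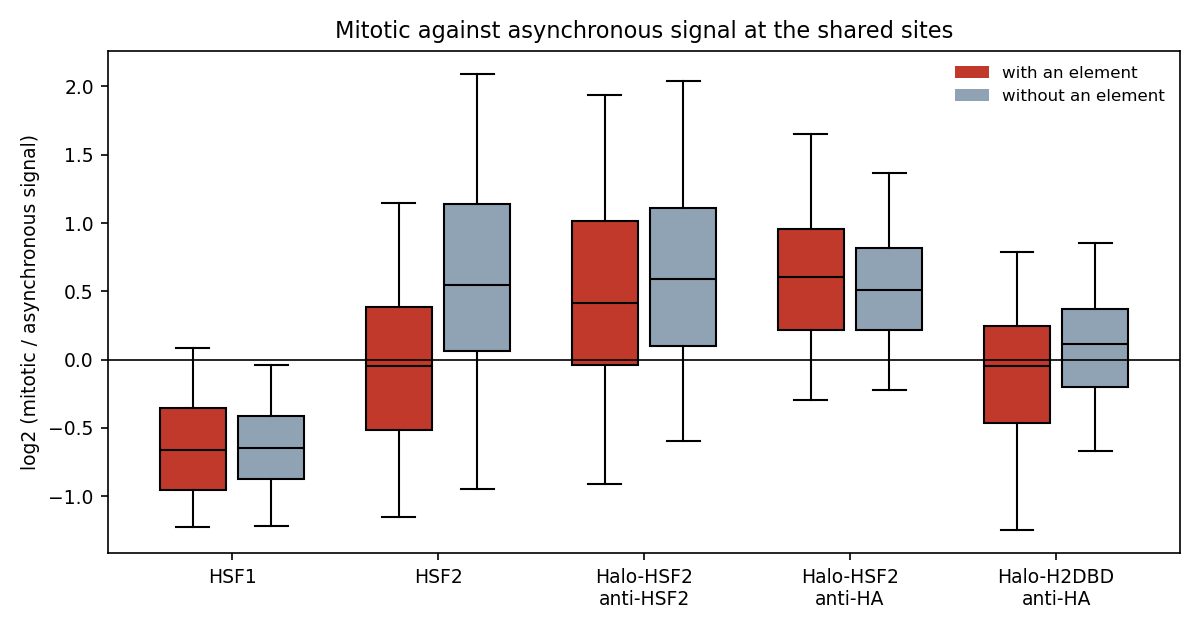
Log2 ratio of mitotic to asynchronous signal (y axis) for the 5 signals (x axis) at shared sites with (red) and without (grey) an element; boxes span the quartiles with the median as a line, and whiskers run from the 5th to the 95th percentile of sites. HSF2 is the signal whose boxes differ most, with medians of -0.05 and 0.54, and HSF1 lies below 0 in both.

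Ranks across the shared sites depended on phase and element. In A, HSF2 signal over all shared sites was unrelated to Halo-HSF2 by the HSF2 antibody (rho = 0.05), to Halo-HSF2 by the HA antibody (-0.04) and to Halo-H2DBD (-0.03). In M the same 3 values were 0.33, 0.25 and 0.25. Among the 492 sites without an element they were 0.27, 0.21 and 0.21 in A and 0.54, 0.42 and 0.44 in M. HSF1 signal in A had rho of 0.62, 0.72 and 0.72 with the 3 constructs over all shared sites. The full-length and truncated proteins read with the HA antibody ranked the sites nearly alike, with rho = 0.93 in A and 0.91 in M. These are descriptions over sites, which share their libraries within a signal and their base composition. HSF2 and the constructs were averaged over the same HSF2 interval, but HSF1 over the overlapping HSF1 interval. The rho values of HSF1 therefore compare stretches of DNA that only partly coincide. The GC content of the HSF2 interval had rho of 0.22 with HSF1, 0.24 with Halo-HSF2 by the HA antibody and 0.00 with HSF2 in A.

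Chaperone genes were the best represented gene group. Of 112 coding genes in 5 chaperone lists, 24 (21.4%) had a start within 1 kb of a shared site, against 553 of all 21840 coding genes (2.53%), and they accounted for 22 sites. An element was present in 11 of the 22. The median HSF2 signal over the 22 sites was 9.04 in A and 9.90 in M, and the median log2 M/A was 0.18 for HSF2 and -0.53 for HSF1. HSF2 was higher in M at 12 of them, and HSF1 was lower at 19. The 3 others, named after their values were seen, were the site of Fkbp8 and Kxd1, Hspa4l (HSF1 4.56 in A and 4.73 in M) and Cacybp (5.78 and 5.81). The lists were chosen with results of these data known, and these genes are known HSF targets.

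Of 15 listed HSP70 and HSP110 genes, 5 were at shared sites. Hspa8, which encodes the constitutive cytosolic HSP70, had HSF2 signal of 74.3 in A and 79.3 in M, and HSF1 signal of 34.8 in A and 18.5 in M, placing it at rank 4 for HSF2 and rank 12 for HSF1 among the 625 sites in A. HSF2 was level there (log2 M/A 0.09) while HSF1 was at 0.531 of its A signal. The stress-inducible Hspa1a and its neighbour Hspa1l shared a site with HSF2 of 12.3 in A and 15.9 in M, and HSF1 of 2.97 and 2.77. At Hspa1b, HSF2 was 14.2 and 12.3 and HSF1 was 6.28 and 3.25. Hspa4l was the fifth gene.

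Of 22 genes of HSP90 proteins and co-chaperones, 8 had a shared site. Stip1, which encodes the adaptor that passes clients from HSP70 to HSP90, had the second highest HSF2 signal of the class in both phases, with 90.8 in A and 147 in M. HSF1 at Stip1 was 21.2 in A and 13.6 in M. HSF2 was higher and HSF1 lower in M also at Chordc1 (HSF2 6.43 and 10.0, HSF1 6.15 and 3.27), at Ptges3, which encodes the co-chaperone p23 (HSF2 4.02 and 9.63, HSF1 7.36 and 3.82), and at Pih1d1 (HSF2 4.08 and 9.77, HSF1 10.5 and 7.01). The site of Fkbp8 and Kxd1, which holds an element of 5 units, went the other way, with HSF2 of 12.0 in A and 6.24 in M and HSF1 of 2.55 and 3.14. At Ahsa2, an HSP90 ATPase activator, HSF2 was 16.6 and 12.9 and HSF1 12.9 and 10.5. Fkbp4 had HSF2 of 5.95 and 9.02 and HSF1 of 2.402 and 2.24.

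Of 51 HSP40 and BAG genes, 4 were at shared sites. Dnajb1, a J-domain partner of HSP70, had HSF2 of 47.2 in A and 61.9 in M and HSF1 of 11.7 and 9.89. Dnaja1 had HSF2 of 31.7 and 37.9 and HSF1 of 9.73 and 6.25. Dnajb6, which keeps polyglutamine proteins soluble, had HSF2 of 9.67 and 5.33 and HSF1 of 3.71 and 3.07. The other gene was Bag3. HSF1 was lower in M at all 4 sites.

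Of 15 chaperonin and prefoldin genes, 6 were at shared sites, which numbered 5. Hspd1 and Hspe1, which encode the mitochondrial HSP60 and HSP10 from a shared promoter, had HSF2 of 71.9 in A and 96.6 in M and HSF1 of 24.2 and 15.0. The cytosolic chaperonin (TRiC) genes Tcp1, Cct4 and Cct8 were lower in M for both factors. Tcp1 had HSF2 of 12.3 and 10.7, Cct4 of 5.58 and 3.23 and Cct8 of 4.42 and 3.85. HSF1 was 7.95 and 6.84, 4.27 and 2.56, and 3.95 and 2.83 at the same sites. Hspb1, the only small heat shock gene with a site, had HSF2 of 6.98 and 11.5 and HSF1 of 4.02 and 3.06.

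At the 3 chaperone sites with the highest HSF2 signal most construct values lay below their medians over the class. Those medians were 1.75 in A and 2.47 in M for Halo-HSF2 by the HA antibody and 2.01 and 2.25 for Halo-H2DBD. Only Hspa8 in A lay above them, for both constructs. By the HSF2 antibody the medians were 1.80 and 2.50. Halo-HSF2 by that antibody was 0.93 and 1.12 at Stip1, 1.45 and 1.54 at Hspa8, and 1.28 and 1.83 at Hspd1. Stip1 had Halo-HSF2 by the HA antibody of 1.42 in A and 2.17 in M and Halo-H2DBD of 1.65 and 1.66. Hspa8 had 2.19 and 2.25 and then 2.21 and 1.61, and Hspd1 1.20 and 1.52 and then 1.59 and 1.29. By Halo-HSF2 signal in A with the HA antibody, Stip1 ranked 372 of 625, Hspa8 233 and Hspd1 421. Ahsa2 was higher, at rank 48, with Halo-HSF2 by the HA antibody of 4.44 in A and 5.61 in M and Halo-H2DBD of 3.50 and 5.17. Of the 20 sites with the highest HSF2 signal in A, 4 were chaperone sites and 8 held an element. Of the 20 highest by any of the 3 constructs in either phase, none was a chaperone site and none held an element.

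**Figure D5:**
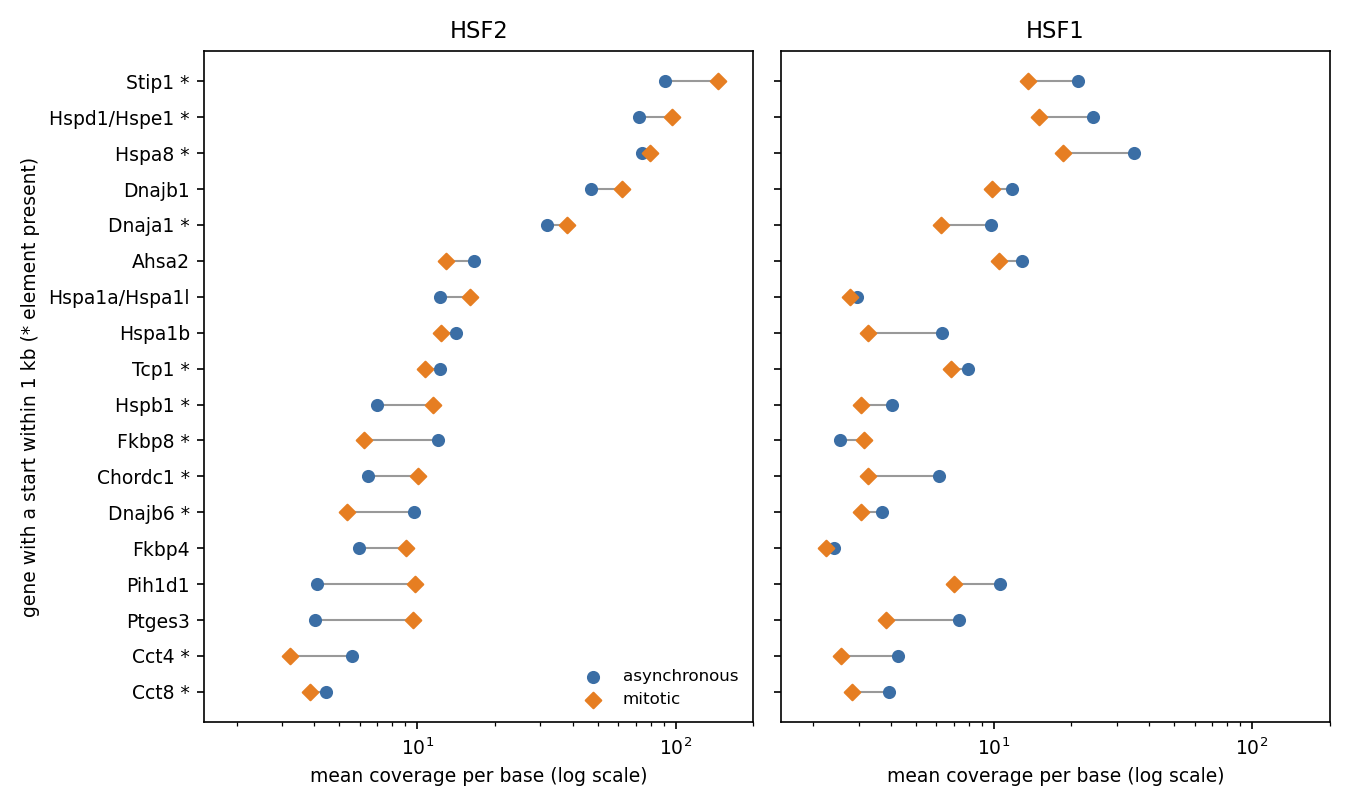
HSF2 (left) and HSF1 (right) signal at the chaperone sites named by the rule, as mean coverage per base on a log scale (x axis), with 1 row per site (y axis) and a line joining asynchronous (circle) and mitotic (diamond) values; a star marks a site with an element. HSF1 is lower in mitosis in every row except that of Fkbp8, whereas HSF2 is higher at some and lower at others.

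Among other gene groups, set beside 2.53% of all coding genes, the class held 14 of 95 histone genes by name (14.7%) at 7 sites, 3 of 76 cytosolic ribosomal protein genes (3.95%; Rpl38, Rpl41 and Rps29), 1 of 16 pluripotency factor genes (6.25%; Tbx3) and none of 6 heat shock factor genes. Of the 95 histone genes, 41 were at any HSF2 site and 20 at sites with HSF1, HSF2 and SOX2, so they were not particular to the class. At the 7 histone sites of the class the median log2 M/A was 0.24 for HSF2 and -0.53 for HSF1. Tbx3 had HSF2 of 16.5 in A and 2.25 in M, the lowest HSF2 ratio (log2 M/A -2.87) among sites at or above the class median of HSF2 signal averaged over A and M, 6.70, with HSF1 of 5.00 and 2.93.

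The highest HSF2 signal in A was at Spo11, which encodes the transesterase that makes the DNA breaks of meiotic recombination. HSF2 there was 115 in A and 69.2 in M and HSF1 8.58 and 7.01, over an interval of 875 bp with an element in an intron. Slc35e2, named as a solute carrier, had the third highest, with HSF2 of 87.5 in A and 81.2 in M, HSF1 of 26.9 and 16.8 and 2 elements.

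Besides Stip1 and Hspd1, the 5 highest HSF2 signals in M included 3 sites far from genes. The site chr14:19277799-19279793 had HSF2 of 8.85 in A and 156 in M, while HSF1 was 21.8 and 10.8. At chr13:9011699-9012305 HSF2 was 11.3 and 129 and HSF1 103 and 68.4. At chr19:61199491-61199848, the narrowest interval of the class at 358 bp, HSF2 was 16.3 and 117 and HSF1 146 and 82.3, its highest signal in the class. None of the 3 held an element, the nearest coding start was at least 15601 bp away, and the last is also among the smallest overlaps. Halo-HSF2 by the HSF2 antibody was also higher in M at the 3 sites (0.97 and 11.6, 4.002 and 25.7, 9.24 and 39.0), but by the HA antibody the values were 2.58 and 4.04, 18.9 and 14.8, and 49.2 and 56.4.

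These 3, with chr3:121249783-121250377 (HSF2 9.41 and 89.9) and chr1:167339731-167340550 (HSF2 5.04 and 85.5), made up the 5 largest differences between the HSF2 and HSF1 ratios among sites at or above the class median signal of both factors, averaged over A and M (6.70 for HSF2 and 6.36 for HSF1), from 3.66 to 5.16 on the log2 scale. All but the first were under 1 kb wide, as were 21 of the 625 sites in all.

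The 5 lowest HSF2 ratios among sites at or above the median HSF2 signal were at sites of several kinds. After Tbx3 came Otx1, a homeobox gene of forebrain development, with HSF2 of 24.5 in A and 3.72 in M and HSF1 of 3.57 and 2.51. The site of AW822073 had HSF2 of 68.1 and 11.9, and a site 5032 bp from the start of Sox1 had 25.6 and 5.17. At chr5:36660821-36661653 HSF2 was 41.4 and 8.61 while HSF1 was 0.88 and 1.22. Among sites at or above the median HSF1 signal, the lowest HSF1 ratios were at a site near Phf21a (26.7 in A and 4.59 in M), at chr11:121981723-121982545 (46.0 and 9.22) and at Pbx4 (11.2 and 3.64). In the same set, the highest was at chr6:47737133-47759705, with 6.28 and 7.51, followed by Gxylt1 with 7.16 and 7.95 and Adnp2, which was level at 8.86 and 8.80.

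At sites with 4 or more units HSF2 was more often lower in M. The Tns3 intron site had HSF2 of 20.8 in A and 12.0 in M and HSF1 of 5.02 and 2.09. The Cacna1a intron site had HSF2 of 24.6 and 12.4 and HSF1 of 2.46 and 1.23, and the Prdm16 intron site had HSF2 of 23.9 and 11.5 and HSF1 of 1.19 and 1.14. Among the 18 sites, HSF2 was higher in M at 7, among them Hspd1, Chordc1, Haus8 and Tbc1d17, and HSF1 was lower at all except the site of Fkbp8 and Kxd1.

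The 164 HSF2 sites with SOX2 but without HSF1 were not summarised here. Set beside the remaining HSF2 sites, the class lay between the sites with neither HSF1 nor SOX2 and those with both in the M/A ratio of HSF2. Its median HSF2 signal was 5.47 in A and 7.58 in M, against 3.43 and 5.21 at the 1103 sites with neither HSF1 nor SOX2 and 5.85 and 6.87 at the 243 with both. The median log2 M/A of HSF2 was 0.43 (0.35 to 0.49) in the class, 0.66 (0.58 to 0.72) without HSF1 or SOX2 and 0.14 (0.03 to 0.26) with both, and these intervals did not overlap. For HSF1 the median log2 M/A was -0.58 (-0.64 to -0.53) at the sites with all 3 factors and -0.61 (-0.65 to -0.57) at the 843 HSF1 sites without an HSF2 site. No test of these differences between classes was possible with averaged values.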

How the data were processed

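Per the methods and the submitters' processing notes (Bowtie2, deepTools, bedtools and FastQC, builds mm10 and dm6), the authors aligned reads to mm10 with Bowtie2, kept PCR duplicates, scaled coverage by reads from a Drosophila spike-in and called HSF1 and HSF2 sites with SEACR against IgG. The deposited signal is mean scaled coverage per base over each site, averaged over replicates by the authors. Levels of different antibodies are not on a shared scale. The methods set the asynchronous sample to 1 in this scaling.

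Repeated intervals (6 of 2141 lines) were counted once. Log2 M/A took the deposited values as they stood, leaving out a site with a 0 in either phase. For a site overlapping several HSF1 intervals, the one with the largest overlap gave the HSF1 signal. Coding starts and exons were those of the GENCODE M21 basic annotation. The share of sites past a 2-fold difference stands beside the same share over all sites of the list, and no chance test was run. The members and lists were chosen with earlier results of these data known. Named sites were those of 10 gene lists with an element or among the 20 strongest, the extremes of HSF2 signal and of both ratios, sites with 4 or more units and the edges of the overlap rule. The result of 1 list is not reported here. Spearman correlations are across sites, with no p-value. All per-sample columns in the tables used were assigned to a condition (0 were left over). Python 3.11.15, numpy 2.4.6, pandas 2.3.3, scipy 1.17.1, matplotlib 3.10.9 and pysam 0.24.0 were used, and the calculations were tested on simulated data.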

Additional observations from a re-analysis of the deposited data

How the results depend on the processing

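Of 75 alternatives computed, 53 left the value within its interval over sites (counts within 1.5 times). Those on chromosomes, narrow intervals, list columns and the split by element were added after seeing the data. Centring on the weakest quartile of sites turned the median log2 M/A of HSF2 (-0.28), of Halo-HSF2 by anti-HA (-0.17), of the HSF2 minus HSF1 difference (-0.23) and of HSF2 without an element (-0.16). It also gave -0.050 for HSF1, 0.014 for Halo-HSF2 by anti-HSF2 and -0.76 for HSF2 with an element. A pseudocount of 1 gave -0.56 for HSF1, 0.90 for the difference, 0.35 and 0.34 for Halo-HSF2 by anti-HSF2 and anti-HA, and 0.46 for HSF2 without an element. The means carried by the site lists gave -2.18 for HSF1 and 2.75 for the difference. Ratios of mean signals gave 0.67 for Halo-HSF2 by anti-HSF2 and 0.0062 for Halo-H2DBD. Away from coding starts, HSF2 stood at -0.28 with and 0.27 without an element. An element was found in 76.1% of sites with 2 units, 2.89% with 4, and 56.2% with 1 base changed, and a coding start within 5 kb of 77.6%. The cause of these shifts was not tested. No paired analysis was possible because the deposited values are means over replicates, and for the same reason no replicate could be left out.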

Other observations

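The shared sites were unevenly spread over chromosomes. Chromosomes 8 and 11 together held 168 of the 625 (26.9%), against 12.2% of coding genes. The same 2 chromosomes held 25.6% of all HSF2 sites and 25.0% of the HSF1 sites, so the excess was present in both source lists. Per 100 coding genes there were 7.34 shared sites on chromosome 8 and 5.62 on chromosome 11, and between 1.56 and 3.59 on the other 17 autosomes. The median log2 M/A on both chromosomes was 0.58 for HSF2 and -0.63 for HSF1, and elsewhere 0.39 and -0.66.

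A group of 3 shared sites lay close together on chromosome 6. The intervals chr6:47653158-47670011, chr6:47737133-47759705 and chr6:47761680-47765818 had HSF2 signal of 41.9, 36.6 and 47.7 in A and 15.4, 9.89 and 18.7 in M. All 3 lay at least 47612 bp from the nearest coding start and none held an element.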
